A study of Mus musculus with 4 samples.

Results

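The genes described here are 10 surface proteins used to sort blood stem and progenitor cells: Cd34, Eng, Prom1, Thy1, Cd48, Slamf1, Procr, Cd93, Cd27 and Abcg2. Their members were all probe sets to which the array's annotation gave exactly one of these symbols. This gave 17 probe sets of 45101, for 10 of the 18193 genes with a single-symbol probe set. Each of Cd34, Prom1, Thy1, Cd48, Procr, Cd27 and Abcg2 was read by 1 probe set, Eng by 2, Slamf1 by 3 and Cd93 by 5.

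RNA from cultured mouse bone marrow was hybridised to 4 Affymetrix arrays, 1 per group. The cells had been isolated as lineage-negative, Sca-1-positive, c-kit-positive (LSK) cells, transduced with a retrovirus and grown in medium with serum, IL-3, SCF, Flt3 and IL-11. One group carried enhanced green fluorescent protein (eGFP) and was taken at day 3, and a second carried β-catenin, the effector of Wnt signalling, and was taken at day 3 as well. The other 2 groups, called DKmix by the submitters, came from LSK cells with β-catenin after 50 and 300 days of culture. Mouse strain, age, the number of animals pooled and the promoter of the vector are not stated in the labels. They also do not say whether the 2 DKmix samples are a single culture. With 1 array per group no test was possible, and every difference below is between single arrays with no replicate check.

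Surface markers of this kind are read in combination. In mouse marrow the long-term stem cell is sorted from the LSK fraction as SLAMF1-positive and CD48-negative, with PROCR, low THY1 and little CD34, and its progeny gain CD34, CD48 and CD27. ABCG2 pumps dyes out of stem cells and so defines the side population. Several of these proteins also occur on mature cells: CD34 on mouse mast cells and endothelium, THY1, CD27 and SLAMF1 on T cells, and endoglin and PROCR on endothelium. In bulk RNA, fewer cells of a type and less RNA per cell cannot be told apart.

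Values are MAS5 signal intensities, and intensities under a floor of 48.2, the median of all non-control values, were set to the floor before ratios were taken. Where 1 of the arrays was at the floor the ratio is written "at least", and a gene was counted as higher or lower from 2-fold. All 10 genes exceeded the floor on at least 1 array: 9 on β-catenin day 3, 7 on eGFP day 3, 6 on DKmix day 50 and 4 at DKmix day 300. Of the 17 probe sets 3 never exceeded it, namely a pair for Slamf1 and 1 for Cd93. Slamf1, Procr, Cd27 and Abcg2 stayed under 4 times the floor on every array, so their ratios rest on dim signals. For genes with several probe sets above the floor on both arrays, the log2 ratios of the 2 brightest were compared. Their difference, put on the scale of 1 probe set, had an SD of 0.64 to 0.91, depending on the comparison. It is the only error measure these arrays hold, and it does not cover signals at the floor.

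RNA controls differed between the arrays, and not along the groups. For Gapdh, 3′ signal over 5′ signal came to 1.18 (β-catenin day 3) and 1.06 (DKmix day 300), against 4.14 (eGFP day 3) and 4.96 (DKmix day 50). The second control, β-actin, read 1.32, 1.20, 1.83 and 3.41 in that order, so by it eGFP day 3 lay nearer to β-catenin day 3 than to DKmix day 50. Both controls had like ratios on β-catenin day 3 and at DKmix day 300. The part of these ratios in the differences below was not tested.

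The label LSK was set against its own markers. Kit, which encodes c-kit, was read at 82.9 on β-catenin day 3 and 55.8 on eGFP day 3, close to the floor, and at 3460 and 1263 on DKmix day 50 and day 300. Its second probe set gave 82.0, 43.7, 1031 and 879.0 in that order of arrays. Ly6a, the gene for Sca-1, was not analysed here. Lists of myeloid genes were bright at day 3. The 13 matched neutrophil genes summed to 13436 with β-catenin and 103599 with eGFP, and the 15 macrophage and dendritic cell genes to 28142 and 34470. The brightest neutrophil genes with β-catenin were Ctsg (4449), Prtn3 (4254), Mpo (2231) and Lcn2 (1237). Ngp, S100a8 and S100a9 read 99.5, 328.0 and 290.0 there, against 13424, 13231 and 28112 with eGFP. At day 3 Kit was thus near the floor while the sums of these lists were high. The label gives the phenotype at isolation, before transduction and culture, so these values describe the cultured cells and do not test the sort.

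**Figure D1:**
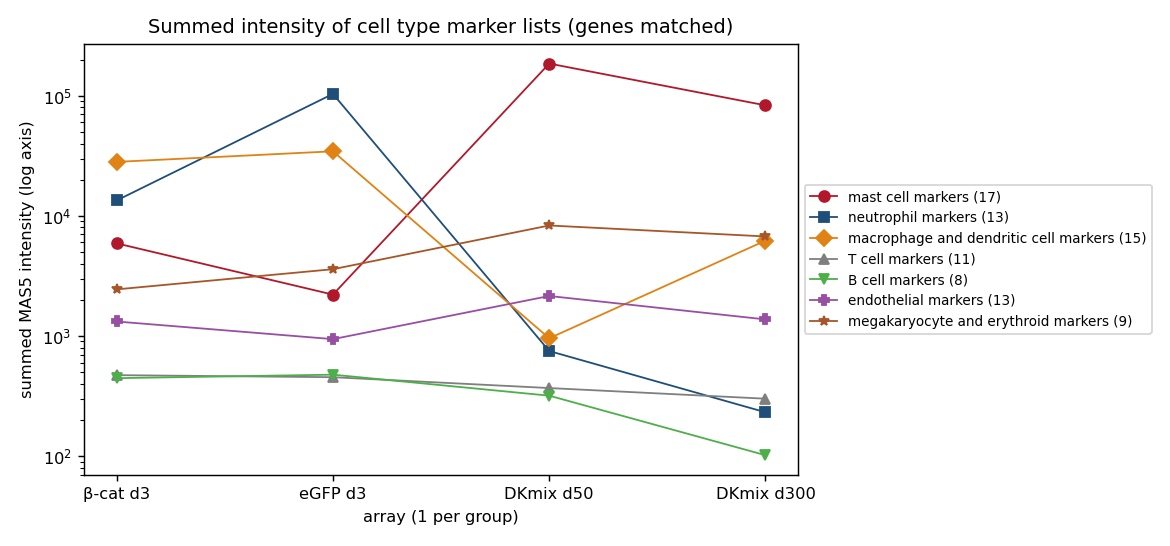
Summed MAS5 intensity (log axis) of 7 lists of cell type markers on the 4 arrays, with the number of matched genes in brackets; lines only join the points of a list. Mast cell markers were highest on the DKmix arrays (185357 and 83196), and neutrophil markers on eGFP day 3 (103599).

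Across the 4 arrays the 10 genes did not share a course. On their brightest probe sets 7 were highest on β-catenin day 3 (Eng, Thy1, Cd48, Slamf1, Procr, Cd27 and Abcg2), where 22.6% of the 15309 genes above the floor were highest. Prom1 was highest on eGFP day 3, Cd93 on DKmix day 50 and Cd34 at DKmix day 300. Cd34 alone among them had both DKmix arrays at least 2-fold above both day 3 arrays, as had 2.78% of all genes, and Thy1 alone had both at least 2-fold below, as had 2.68%. By its second probe set Cd93 joined Cd34, and on the scale of the hybridisation controls Cd34 did not pass.

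**Figure D2:**
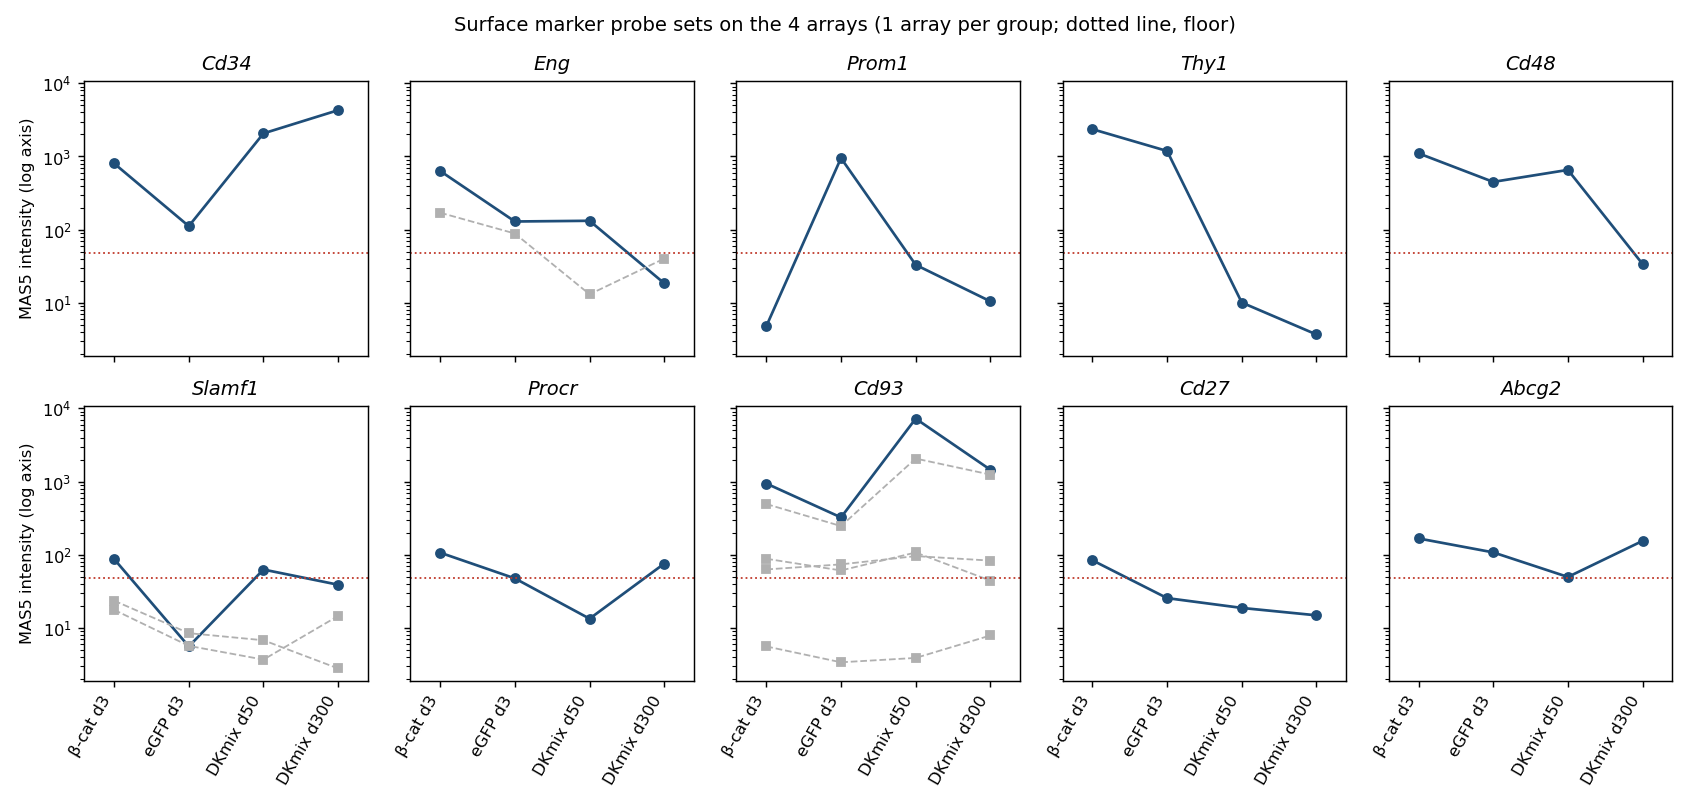
MAS5 intensity (log axis) of every probe set of the 10 genes on the 4 arrays: filled circles, the brightest probe set of the gene; grey squares, its other probe sets; dotted line, the floor of 48.2. Lines only join the points of a probe set. Cd34 climbs to 4293 on DKmix day 300, Thy1 drops to 3.7, and Prom1 exceeds the floor on eGFP day 3 alone.

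Cd34 encodes a sialomucin of progenitors and endothelium that is also found on mouse mast cells. Its single probe set gave 111.8 on eGFP day 3, 804.1 on β-catenin day 3, 2069 on DKmix day 50 and 4293 at DKmix day 300. It was above the floor on all 4 arrays and higher on each DKmix array than on either day 3 array. At day 3 β-catenin exceeded eGFP 7.19-fold, a log2 ratio of 2.85 that exceeded those of 99.8% of measured genes. DKmix day 50 was 2.57-fold above β-catenin day 3 and 18.5-fold above eGFP day 3, and DKmix day 300 was 2.08-fold above DKmix day 50, barely past the threshold. With the arrays set equal on their hybridisation controls the day 50 log2 ratio over β-catenin day 3 was 0.32 instead of 1.36, under 2-fold, while the day 300 ratio stayed past it at 1.42.

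The genes most like Cd34 over the 4 arrays were Tspan13, a tetraspanin (938.5 on β-catenin day 3, 139.6 on eGFP day 3, 2105 on DKmix day 50 and 3795 at DKmix day 300), and Lat2, an adaptor of IgE receptor signalling (256.3, 40.7, 963.3 and 2284). Likeness was the root mean square difference of log2 values centred on each gene's mean, 0.19 for Tspan13 and 0.27 for Lat2, among 7523 genes that reached 4 times the floor. With 4 points such a match is a description only. The 17 matched mast cell markers summed to 5902 and 2209 on the β-catenin and eGFP day 3 arrays and to 185357 and 83196 on DKmix day 50 and day 300. Of those measured, 12 of 15 were at least 2-fold higher on DKmix day 50 than on β-catenin day 3 (16.1% of all genes) and 2 lower, Hdc and Mcpt8 (15.7%). On DKmix day 300, 11 of 13 were higher (14.0%) and 1 lower (14.4%), Mcpt8, by 20.2-fold. At day 3, 7 of 12 were higher with β-catenin (10.2%) and 2 lower (9.47%). Among their defining members, Cma1 was under the floor on both day 3 arrays (6.9 and 17.3) and Fcer1a read 723.5 and 64.4 there. Of the 13 endothelial markers 6 exceeded the floor on each of the first 3 arrays (β-catenin day 3, eGFP day 3 and DKmix day 50) and 4 on DKmix day 300, and they summed to between 940.5 and 2151. Vwf, von Willebrand factor, read 1412 on DKmix day 50, Pecam1 (CD31) 743.0 at DKmix day 300, and Egfl7, a secreted endothelial protein, 582.0 on β-catenin day 3 and 420.0 at DKmix day 300. Kdr, the main VEGF receptor, was under the floor on all 4 arrays (6.4 to 15.0). The part of the mast cell and endothelial genes in the Cd34 signal was not tested.

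The Cd34 start region is shown because Cd34 was the gene with both DKmix arrays above both day 3 arrays. It is 250 bases up to the start site on the plus strand of chr1:194938571-194938820 (RefSeq, GRCm38.p6). Windows of this length were searched on both strands for CTTTGA, the core of the TCF/LEF site through which β-catenin acts, for the GATA factor motifs AGATAA and TGATAA, and for the E-box CANNTG, whose palindrome reads alike on both strands.
Cd34: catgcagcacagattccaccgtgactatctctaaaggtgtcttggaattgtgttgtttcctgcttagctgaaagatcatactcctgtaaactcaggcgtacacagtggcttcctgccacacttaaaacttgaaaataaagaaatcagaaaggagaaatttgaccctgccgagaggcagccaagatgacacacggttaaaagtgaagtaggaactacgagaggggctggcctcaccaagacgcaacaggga
None of these letters occurred in the Cd34 window. Of all 32851 windows in the promoter table, 13.8% held CTTTGA, 9.99% AGATAA, 7.94% TGATAA and 66.2% an E-box. The table had 8 of the 10 genes, with 11 windows in all: 1 held CTTTGA, 0 held AGATAA, 1 held TGATAA and 9 held an E-box. Thy1 and Cd93 had no entry.

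Cd93 encodes a C-type lectin-like transmembrane protein of early progenitors, monocytes and endothelium. Its brightest probe set gave 941.6 on β-catenin day 3, 324.0 on eGFP day 3, 7248 on DKmix day 50 and 1452 at DKmix day 300. The second gave 493.8, 246.7, 2064 and 1247 in the same order. Both placed the arrays alike, with DKmix day 50 highest and eGFP day 3 lowest.

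The probe sets of Cd93 differed in the size of these steps. By the brightest, DKmix day 50 was 7.70-fold above β-catenin day 3 and 22.4-fold above eGFP day 3. By the second the same steps were 4.18-fold and 8.37-fold. DKmix day 300 was 4.99-fold below day 50 by the first and 1.66-fold below by the second, so the second probe set did not bear out a 2-fold loss. Over β-catenin day 3, DKmix day 300 was 1.54-fold higher by the first and 2.53-fold by the second. Of the 3 remaining probe sets, a pair was dim, one at 63.1 to 96.0 and the other at 44.4 to 107.6, and the last stayed at 3.4 to 7.9. The dim pair differed by less than 2-fold throughout, except that DKmix day 300 was at least 2.23-fold below day 50 by one of them. The nearest patterns to the brightest were Niban1 (174.1, 69.6, 1593 and 416.8) and C77080 (121.9, 9.0, 942.6 and 282.3), at differences of 0.23 and 0.24. On the hybridisation control scale the day 300 log2 ratio over β-catenin day 3 by the brightest probe set changed sign, from 0.63 to -0.37, neither past 2-fold.

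Prom1 encodes prominin, the CD133 antigen, a pentaspan protein of membrane protrusions. Its single probe set gave 950.9 on eGFP day 3 and stayed under the floor on the other arrays, at 4.8 on β-catenin day 3, 33.1 on DKmix day 50 and 10.5 at DKmix day 300. It was thus at least 19.7-fold higher on eGFP day 3 than on each of the other arrays compared with it. At day 3 it was the 1 gene of the 10 that was lower with β-catenin. Among all bright genes the patterns closest to it were Camp, the neutrophil cathelicidin (943.4 on eGFP day 3 and 13.1 to 28.9 elsewhere), and Stfa2l1, a stefin (848.2 and 6.2 to 9.0), with differences of 0.0049 and 0.071. These matches rest on 1 array, since all 3 genes were at the floor on the others. Of the 13 neutrophil markers 10 were at least 2-fold lower with β-catenin than with eGFP (9.47% of all genes) and 0 were higher (10.2%). The part of the neutrophil markers in the Prom1 signal was not tested. Prom2, its paralogue, did not follow: it gave 11.8 on eGFP day 3, 49.8 on β-catenin day 3, and 4.3 and 27.5 on the DKmix arrays.

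Thy1 encodes a small GPI-anchored immunoglobulin-like protein, present at low density on mouse stem cells and at high density on T cells. It gave 2361 on β-catenin day 3 and 1189 on eGFP day 3, then 10.1 on DKmix day 50 and 3.7 at DKmix day 300. Both day 3 arrays were high and both DKmix arrays were under the floor, with no overlap. The loss was at least 49.0-fold from β-catenin day 3 and, for DKmix day 50, at least 24.7-fold from eGFP day 3. Between the day 3 arrays Thy1 lay just under the threshold, 1.99-fold higher with β-catenin.

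T cell genes were dim on all 4 arrays, and their sum was higher on the day 3 arrays, where Thy1 was high. The T cell list summed to 471.6 and 453.4 on the β-catenin and eGFP day 3 arrays and to 368.2 and 300.2 on the DKmix arrays, with 5, 4, 3 and 2 of its 11 matched genes above the floor. Cd3d, Cd3e and Cd3g, the chains that define the T cell receptor complex, were under the floor on all 4 arrays. Zap70 read 108.1 on β-catenin day 3, 79.9 on eGFP day 3, 76.8 on DKmix day 50 and 75.1 at DKmix day 300. In that order Cd8a read 92.8, 79.7, 30.0 and 90.1, and Cd2 85.0, 21.0, 34.4 and 18.4. Cd5 (2.0, 66.3, 84.7 and 44.8) and Cd28 (52.6, 66.1, 94.7 and 16.3) were highest on DKmix day 50. Of the 4 to 6 T cell genes measured per comparison, 0 passed 2-fold in any, against 9.47% to 16.1% of all genes in either direction. The part of T cell genes in the Thy1 signal was not tested. The genes closest to Thy1 over the arrays were Thbs1, the secreted adhesion protein thrombospondin (2249, 941.0, 31.4 and 5.3), and App (1321, 1020, 7.3 and 5.1), at differences of 0.14 and 0.34.

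Cd48 and Slamf1 belong to the SLAM family of immunoglobulin-like receptors, and their presence in opposite senses marks stem cells in sorting. Cd48 is GPI-anchored and binds CD244, and SLAMF1 (CD150) binds itself on neighbouring cells. Cd48 gave 1105 on β-catenin day 3, 449.6 on eGFP day 3, 655.7 on DKmix day 50 and 34.0 at DKmix day 300. The first 3 arrays were clearly above the floor and DKmix day 300 was below it. The drop to day 300 was at least 13.6-fold from DKmix day 50 and at least 22.9-fold from β-catenin day 3, lower than for all but 0.18% and 0.20% of measured genes. At day 3 Cd48 was 2.46-fold higher with β-catenin. DKmix day 50 lay within 2-fold of both day 3 arrays (log2 ratios of -0.75 and 0.54). Its nearest patterns were Rnf217, a ubiquitin ligase (1703, 1105, 1797 and 133.9), and Cfp, the complement protein properdin (1075, 226.6, 558.4 and 44.1), at 0.35 and 0.40.

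Slamf1 was dim throughout. Its brightest probe set gave 87.6 on β-catenin day 3, 5.6 on eGFP day 3, 62.9 on DKmix day 50 and 39.0 at DKmix day 300, so it was above the floor on 2 arrays. Its ratios, bounded by the floor, were under 2-fold, with β-catenin day 3 at least 1.82-fold above eGFP day 3. With a floor of 11.0 that log2 ratio was 2.99. The other probe sets stayed between 2.8 and 23.6. Where Cd48 was under the floor, at DKmix day 300, Slamf1 was under it as well. Bulk RNA with a Slamf1 signal this dim cannot tell whether single cells were SLAMF1-high and CD48-low.

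Both lie on chromosome 1 in a run of SLAM family genes. In the RefSeq order Cd244a, Ly9, Slamf7 and Cd48 follow one another, and after 1 other protein-coding gene come Slamf1, Cd84 and Slamf6. Cd244a, the receptor for CD48, gave 316.8 on β-catenin day 3, 487.1 on eGFP day 3, 2017 on DKmix day 50 and 76.5 at DKmix day 300, a 26.4-fold drop between the DKmix arrays. Its second probe set gave 220.7, 123.6, 329.3 and 126.0, and so a smaller drop. Cd84 gave 189.5, 169.2, 380.9 and 140.8. On their brightest probe sets DKmix day 300 was thus lowest for Cd244a, Cd48 and Cd84. The second probe set of Cd84 gave 61.8, 67.2, 23.7 and 51.9, lowest on DKmix day 50, and that of Cd244a was about as low on eGFP day 3 as on DKmix day 300. Slamf1 was under the floor on eGFP day 3 as well as on DKmix day 300, and Ly9 and Slamf7 did not exceed 49.3 on any array.

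**Figure D3:**
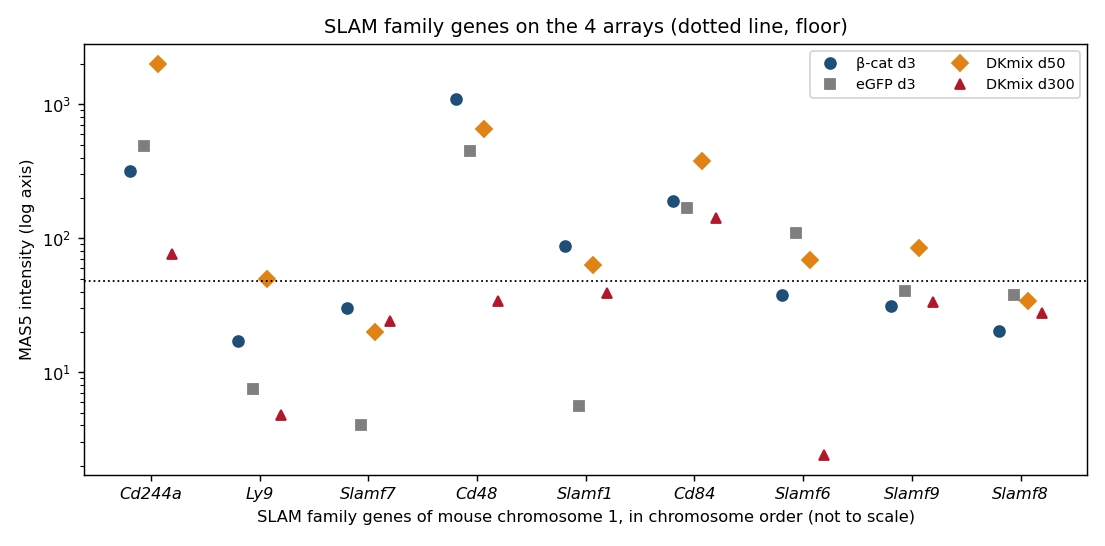
MAS5 intensity (log axis) of 9 SLAM family genes on the 4 arrays, in their order along mouse chromosome 1, with distances not to scale; the dotted line is the floor of 48.2. DKmix day 300 (triangles) lies at 34.0 for Cd48 and 76.5 for Cd244a, the lowest of their arrays.

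The start regions of Cd48 and Slamf1 are shown because the genes are near neighbours and each region held a TCF/LEF or GATA motif. Each is 250 bases up to the start site on the plus strand, at chr1:171681742-171681991 for Cd48 and chr1:171766882-171767131 for Slamf1 (RefSeq, GRCm38.p6). Capitals mark TCAAAG, the reverse complement of the TCF/LEF core, 168 bases before the Cd48 start, and TGATAA 130 bases before the Slamf1 start. E-boxes are left in lower case.
Cd48: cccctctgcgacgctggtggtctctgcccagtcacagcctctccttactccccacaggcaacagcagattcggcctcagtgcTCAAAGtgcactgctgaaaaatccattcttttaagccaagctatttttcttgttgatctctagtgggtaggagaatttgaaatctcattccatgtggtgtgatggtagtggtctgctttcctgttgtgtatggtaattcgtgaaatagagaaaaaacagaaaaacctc
Slamf1: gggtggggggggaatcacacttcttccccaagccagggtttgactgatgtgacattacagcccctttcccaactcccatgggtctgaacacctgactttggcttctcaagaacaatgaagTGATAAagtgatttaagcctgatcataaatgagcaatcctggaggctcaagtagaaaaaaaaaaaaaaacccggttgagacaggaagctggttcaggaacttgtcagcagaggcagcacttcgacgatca
Both motifs are common among all windows, as given above for Cd34, and a match does not show that a factor binds.

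Eng encodes endoglin, a co-receptor for TGF-β and BMP ligands on stem cells, erythroid precursors and endothelium. Its brighter probe set gave 633.5 on β-catenin day 3, 129.4 on eGFP day 3, 132.3 on DKmix day 50 and 18.5 at DKmix day 300. The other gave 170.5, 88.6, 13.1 and 40.3. Both were highest on β-catenin day 3, and both had DKmix day 300 under the floor, but DKmix day 50 was under it by the second only. At day 3 Eng was 4.90-fold higher with β-catenin by the first and 1.92-fold by the second. DKmix day 300 was at least 13.1-fold below β-catenin day 3 by the first and at least 3.54-fold by the second. DKmix day 50 was close to eGFP day 3 by the first probe set (log2 ratio 0.03) and was at least 1.84-fold below it by the second. The nearest patterns were Pdlim1, a PDZ-LIM scaffold protein (484.4, 155.2, 137.2 and 5.1), and Gimap6, a GTPase of immune cells (423.4, 134.5, 127.3 and 20.3), at 0.23 and 0.25.

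The partners of endoglin did not share a course. Tgfbr3 gave 117.8 on β-catenin day 3, 78.2 on eGFP day 3, 11.9 on DKmix day 50 and 38.3 at DKmix day 300. Like Eng, it was highest on β-catenin day 3 and under the floor at DKmix day 300. Acvrl1 stayed dim, at 60.8, 89.7, 43.5 and 57.0 in that order. Tgfbr2, the type II receptor for TGF-β, gave 272.4 on β-catenin day 3, 352.7 on eGFP day 3, 2262 on DKmix day 50 and 1201 at DKmix day 300. Tgfbr1, the type I receptor, gave 46.9, 149.3, 914.9 and 339.5 in that order. Both receptors were higher on each DKmix array than on either day 3 array, and Eng was not. Id1, a target of BMP signalling, gave 697.2, 1106, 4.9 and 86.3. Smad6, an inhibitor of that pathway, gave 4.4, 588.5, 69.3 and 56.5, under the floor on β-catenin day 3 alone. Tgfb1, the ligand, was 3.75-fold above eGFP with β-catenin at day 3.

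Procr, the endothelial protein C receptor, gave 106.9 on β-catenin day 3, 47.6 on eGFP day 3, 13.4 on DKmix day 50 and 75.8 at DKmix day 300. It was above the floor on β-catenin day 3 and DKmix day 300, the pair with low 3′ to 5′ ratios, and under it on the others. At these levels its changes, at least 2.22-fold between β-catenin day 3 and each of eGFP day 3 and DKmix day 50, sit close to the threshold. F2r, the thrombin receptor PAR-1 through which PROCR-bound protein C signals, was far brighter on DKmix day 50, at 5471 against 872.8 on β-catenin day 3, 267.2 on eGFP day 3 and 769.3 on DKmix day 300. Pros1, the protein S cofactor of that system, gave 444.7 on DKmix day 300 against 63.5 on β-catenin day 3.

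Cd27, a TNF receptor family member of lymphocytes and short-term progenitors, was above the floor on β-catenin day 3 alone (84.1) and gave 25.6 on eGFP day 3, 18.8 on DKmix day 50 and 14.9 at DKmix day 300. Each of the other arrays compared with it was at least 1.74-fold lower, a bound short of 2-fold. With a floor of 11.0 the log2 ratio between the day 3 arrays was 1.72. Its ligand gene Cd70 gave 98.3 on β-catenin day 3 and 2.3 to 4.6 on the other arrays, so ligand and receptor both exceeded the floor there alone. Tnfrsf9, a relative, was high on β-catenin day 3 and DKmix day 300 (607.8 and 668.1) and low on eGFP day 3 and DKmix day 50 (74.3 and 55.3). The Gapdh 3′ to 5′ ratios split the arrays in this way, but by β-actin eGFP day 3 lay nearer to β-catenin day 3. The part of these ratios in the Tnfrsf9 signal was not tested.

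Abcg2, an ATP-driven efflux pump, gave 167.3 on β-catenin day 3, 107.9 on eGFP day 3, 49.8 on DKmix day 50 and 154.8 at DKmix day 300. It was above the floor on all 4 arrays, and only DKmix day 50 stood apart, 3.36-fold below β-catenin day 3 and 2.17-fold below eGFP day 3. Between DKmix day 300 and β-catenin day 3, the arrays with like RNA controls, it differed by a log2 ratio of -0.11. With a floor of 134.1 in place of 48.2 the day 50 difference from β-catenin day 3 was -0.32. Among other efflux pumps Abcb1b gave 161.8, 6.3, 501.0 and 185.2 in the order β-catenin day 3, eGFP day 3, DKmix day 50 and DKmix day 300, and so was highest where Abcg2 was lowest.

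Set side by side, the comparisons gave these counts. At day 3, 5 of the 10 genes passed 2-fold in favour of β-catenin (Cd34, Eng, Cd48, Procr and Cd93), against 10.2% of 13379 measured genes, and Prom1 was lower, against 9.47%. Their median log2 ratio was 1.07, and that of all genes -0.015. Intensities were higher with β-catenin for 9 of the 10, and for 49.2% of measured genes. The hybridisation controls were 0.52 (log2) brighter on eGFP day 3, and on the scale that sets them equal 25.3% of all genes and 9 of the 10 passed 2-fold in favour of β-catenin.

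From β-catenin day 3 to DKmix day 50, Cd34 and Cd93 were higher and Eng, Thy1, Procr and Abcg2 lower among 9 measured, against 16.1% higher and 15.7% lower of all genes. To DKmix day 300, Cd34 was higher (14.0% of all genes) and Eng, Thy1 and Cd48 lower (14.4%), again of 9. Both comparisons had a median of -0.80 over these genes, beside 0.067 and -0.077 over all. In each the median was the value of Cd27, a bound set by the floor on the DKmix array. The equal medians are thus 1 floor bound and do not measure a shared shift of the genes. The 2 comparisons share the β-catenin day 3 array. On the hybridisation control scale 4.43% of all genes were higher and 42.7% lower at day 50, and 4.47% and 44.3% at day 300. Between DKmix day 50 and day 300, Cd34 and Abcg2 were higher (15.0%) and Eng, Cd48 and Cd93 lower (15.9%) of 7 measured. From eGFP day 3 to DKmix day 50, Cd34 and Cd93 were higher (15.6%) and Prom1, Thy1 and Abcg2 lower (15.0%) of 8, where the control scale gave 7.56% and 26.6% over all genes.

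**Figure D4:**
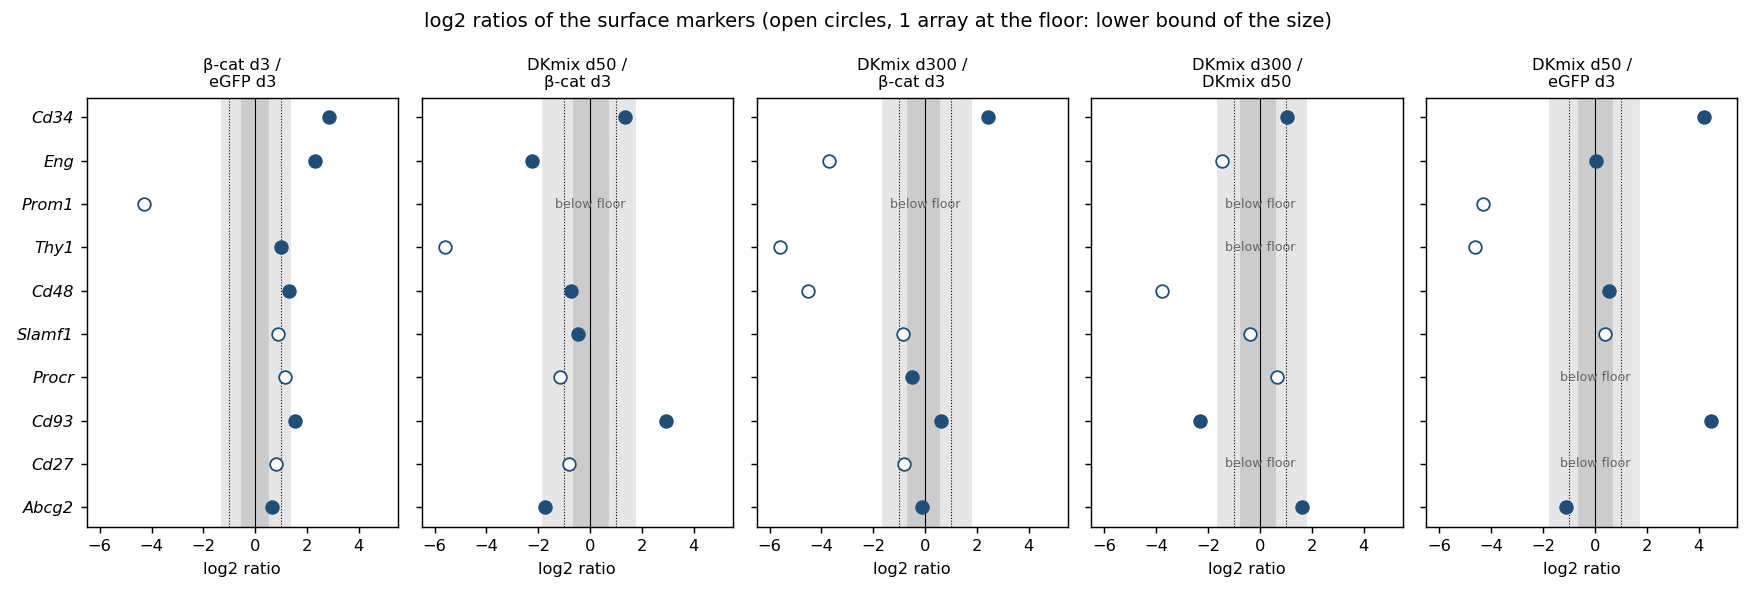
log2 ratios of the 10 genes on their brightest probe sets in 5 comparisons: filled circles, both arrays above the floor; open circles, 1 array at the floor, so a lower bound of the size. Grey bands hold the middle 50% and 90% of all measured genes, and dotted lines mark 2-fold. Cd34 lies right of 2-fold in all 5 panels, from 1.05 to 4.21.

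Other surface markers of stem and progenitor cells, listed beside the 10, did not lean to β-catenin at day 3. Past 2-fold, 6 of 35 measured genes were higher (10.2% of all genes) and 8 lower (9.47%), and the median was a log2 ratio of -0.067. Cd53 and Cd82, tetraspanins of blood cells, were 16.2-fold and 15.0-fold higher, and Csf1r, the M-CSF receptor, 5.90-fold lower. On DKmix day 300 against β-catenin day 3, 8 of 34 were higher (14.0% of all genes) and 8 lower (14.4%). There Kit was 15.2-fold higher and Cd24a, the heat stable antigen, at least 15.5-fold lower. On DKmix day 50, 9 of 35 were higher (16.1%) and 8 lower (15.7%), with Cd59a, a complement regulator, 16.6-fold higher. Between the DKmix arrays Adgrg1, the adhesion receptor GPR56, was 10.5-fold higher at day 300. Of the families and partners of the 10 genes, 7 of 41 were higher (10.2% of all genes) and 5 lower (9.47%) with β-catenin at day 3. Against β-catenin day 3, 11 of 41 were higher (16.1%) and 7 lower (15.7%) on DKmix day 50, and 8 of 37 higher (14.0%) and 7 lower (14.4%) on DKmix day 300. Against eGFP day 3, 11 of 40 were higher on DKmix day 50 (15.6%) and 3 lower (15.0%). Between the DKmix arrays 6 of 37 were higher at day 300 (15.0%) and 9 lower (15.9%).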

How the data were processed

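Signal intensities, 1 per probe set and array, were made by the authors with MAS5, per the submitters' processing notes, from biotin-labelled cRNA. No MAS5 version, detection call or genome build is stated. The deposited intensities had equal means after trimming 2% at either end of each array (150.0) and were used on that scale. Symbols came from the platform annotation table: 34945 non-control probe sets had 1 symbol, and 932 with several were left unnamed. The 64 control probe sets were left out. Each gene took its single-symbol probe set of highest mean log2 intensity, floored at 48.2. Named were all 10 genes, up to 4 genes per list and comparison having the largest changes past 2-fold, and the 2 nearest patterns of genes reaching 4 times the floor with a log2 range of at least 1. Family partners named outside that rule were chosen after their values were seen. The members and lists were chosen with earlier results of these data known. The counting was tested on simulated data. Alternatives were quantile normalization, the scale of 9 hybridisation controls, floors of 11.0 and 134.1, averaging a gene's probe sets, and its second brightest probe set. Precision is limited by having 4 arrays. Python 3.11.15, pandas 2.3.3 and numpy 2.4.6 were used.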

Additional observations from a re-analysis of the deposited data

How the results depend on the processing

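With 1 array per group no array could be left out and nothing could be tested. No paired analysis was possible because the groups hold 1 array each. Quantile normalization kept every count of the 10 genes within 1.5 times. On the hybridisation control scale the median of all genes moved to 0.46 at day 3. Over β-catenin day 3 it moved to -0.82 (DKmix day 50) and -0.88 (DKmix day 300). On that scale 9 genes were higher with β-catenin at day 3 (25.3% of all genes). Against β-catenin day 3, 1 was higher (4.43%) and 7 lower (42.7%) on DKmix day 50, and 7 were lower (44.3%) on DKmix day 300. With both DKmix arrays above both day 3 arrays there were 0 (0.928%). Raising the floor to 134.1 left 2 genes lower on DKmix day 50 than on β-catenin day 3 (15.8% of all genes there) and 1 higher on DKmix day 300 than on day 50 (15.9%). Procr was no longer measured above it, and Abcg2 was raised to it on DKmix day 50, which shrank its log2 ratios to -0.32 and 0.21. The floor of 11.0 gave 5 lower on DKmix day 300 than on β-catenin day 3, while the share of all genes lower rose from 14.4% to 24.9%. With the mean of all probe sets (8.37% of all genes), and with the second brightest (14.5%), 1 gene was lower on DKmix day 300 than on day 50. The second brightest also gave 2 higher on DKmix day 300 than on β-catenin day 3 (13.4%), and 2 (2.42%) with both DKmix arrays above both day 3 arrays, Cd34 and Cd93. Of 235 single-gene log2 ratios under these alternatives, 183 stayed within the probe set SD of the main value and 52 moved further. Of those past 2-fold, 0 changed sign. The 183 include ratios that could not move, since 7 of the 10 genes have 1 probe set. For these, averaging probe sets or taking the second brightest returned the main value. The causes were not tested. Signals under 4 times the floor (Slamf1, Procr, Cd27 and Abcg2) limit what can be said of those genes.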
